A study of Mus musculus with 7 samples.

Results

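A set of 10 transcription factor genes used in neurons of the deep cortical layers were followed in mouse cerebral cortex. Not all are specific to those layers: Neurod6 belongs to postmitotic excitatory neurons of the cortex, and Foxp1 is also found in upper layers. The 10 genes are Tbr1, Bcl11b, Fezf2, Sox5, Foxp1, Foxp2, Zfpm2, Nr4a2, Etv1 and Neurod6. They were taken by symbol, and all 10 were among the 36666 genes of the gene table, while 74 of the 86425 exons of the exon table belonged to 8 of them and none to Foxp2 or Zfpm2. RNA of whole cerebral cortex from C57BL/6 mice was measured by mRNA sequencing in 3 young adult samples, referred to here as adult, and in 4 samples of embryonic day 17 (E17). In the GENCODE M21 annotation (GRCm38), Foxp1, Foxp2, Neurod6 and Sox5 lie on chromosome 6, Nr4a2 and Tbr1 on chromosome 2, Bcl11b and Etv1 on chromosome 12, Fezf2 on chromosome 14 and Zfpm2 on chromosome 15. The labels give no treatment and no engineered allele in either group. They do not say whether a sample was 1 animal or a pool, or whether replicates of a stage were prepared apart, so the p-values cover only the spread among the 7 samples, which may be technical.

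Neurons of layers 5 and 6 and of the subplate are among the earliest born in the cortex and send axons out of it, to the thalamus, brainstem and spinal cord. Their identity depends on a network of transcription factors that repress each other's programmes: Fezf2 acts upstream of Bcl11b in layer 5 neurons that project below the cortex, and Tbr1 represses Fezf2 in layer 6 neurons that project to the thalamus. Several of these genes are also used elsewhere in the brain, Bcl11b, Foxp1 and Foxp2 by striatal neurons and Nr4a2 by midbrain dopamine neurons and the claustrum.

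In adult cortex 7 of the 10 factors were lower than at E17, 1 was higher and 2 were not called. Neurod6, Sox5, Fezf2, Bcl11b and Tbr1 were lower in every adult sample than in any E17 sample, with adult means between 11.2% and 36.6% of the E17 means, and Foxp2 and Zfpm2 were at 50.1% and 51.8%. Etv1 was the single factor that was higher, at 1.87 times its E17 level, and Foxp1 and Nr4a2 had ranges that overlapped between the stages. Calls came from limma with a Benjamini-Hochberg adjusted p under 0.05 over 22828 genes. Of all genes tested, 33.9% were called lower in adult cortex, beside 7 of the 10 factors, and 35.8% were called higher, beside 1 of the 10. The median difference of the 10 factors was -1.12 on the deposited log2-like scale, where the median of all genes tested was 0.03. The groups did not overlap for 8 of the 10 factors and for 68.9% of all genes tested.

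**Figure D1:**
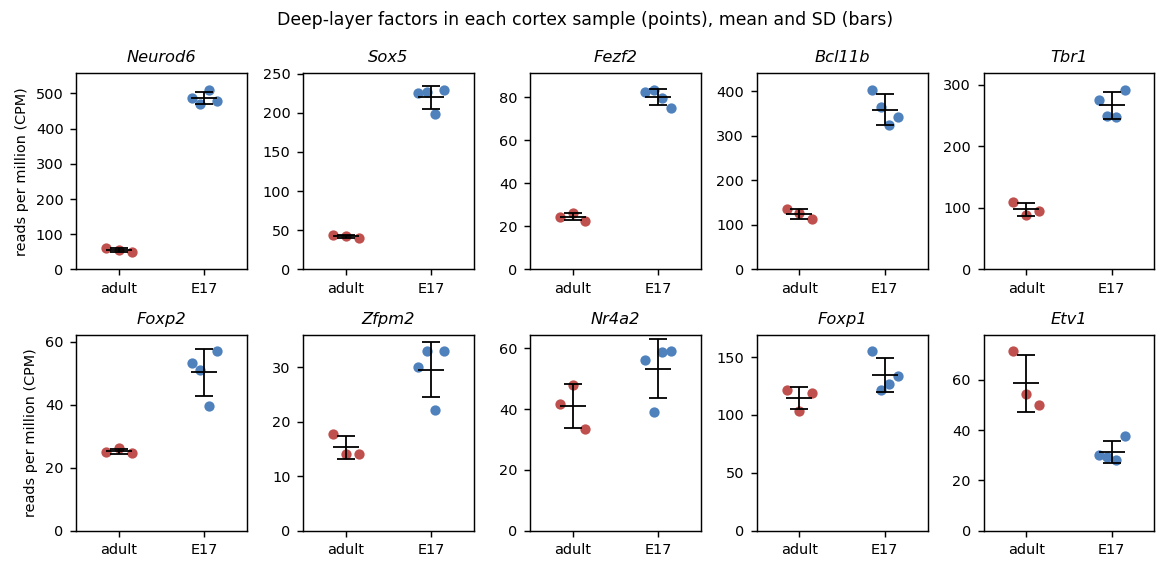
Level of each factor in counts per 1000000 reads in genes (CPM, vertical axes from 0), with 3 adult samples at the left of each panel and 4 E17 samples at the right as points, and mean and SD as bars. The adult points lie below the E17 points in 7 panels and above them for Etv1, and the groups overlap for Nr4a2 and Foxp1.

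The samples held 18444270 to 23606524 reads in genes, and the factors had between 320 reads (Zfpm2) and 10858 reads (Neurod6) in a sample, so none was near the limit of detection. Levels are counts per 1000000 reads in genes (CPM). Differences are adult minus E17 on the deposited scale, where 1 unit stands for about 2-fold at these read numbers. The deposited values are scaled otherwise than CPM, so each factor's difference lies somewhat higher than its CPM ratio implies. Foxp1 in adult cortex was 0.854 times its E17 level by CPM and 0.909 times by the deposited difference, and Nr4a2 0.769 and 0.821 times. In whole tissue, fewer cells of a type and less RNA per cell cannot be told apart. Beside the counts of called markers given here, 35.8% of all genes tested were called higher and 33.9% lower. The make-up of the tissue differed, for some cell types widely, by its markers. Those of the oligodendrocyte lineage were called higher in adult cortex in 8 of 8 cases (summed level 3402 to 6152 CPM in adult samples and 145 to 156 CPM in E17 samples), of microglia in 6 of 6 (232 to 249 CPM in adult and 22.2 to 26.3 CPM in E17 samples), and of meninges and fibroblasts in 6 of 6 (67.9 to 77.9 CPM in adult and 5.69 to 8.62 CPM in E17 samples). Of the markers of endothelium and mural cells, 4 of 8 were higher and 2 lower (195 to 212 CPM in adult and 139.7 to 159 CPM in E17 samples), and of those of interneurons, 6 of 10 were higher and 4 lower (902 to 958 CPM in adult and 493 to 587 CPM in E17 samples). Progenitor markers were lower in 7 of 8 cases (96.9 to 136 CPM in adult samples and 818 to 1079 CPM in E17 samples). Of 6 markers of projection neurons in general, 3 were higher and 2 lower, among them Camk2a, a kinase of mature excitatory synapses, at 3464 ± 385 CPM in adult and 73.7 ± 4.20 CPM in E17 cortex, and Emx1, a homeobox factor of the cortical lineage, at 15.8 ± 1.10 CPM in adult and 28.8 ± 4.38 CPM in E17 cortex. The part of these shifts in the factors' differences was not tested.

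Neurod6, a basic helix-loop-helix factor of postmitotic excitatory neurons of the cortex, had the largest difference of the 10. It stood at 59.9, 54.1 and 48.9 CPM in the adult samples, against 488, 469, 511 and 479 CPM in the E17 samples. Each E17 sample was thus several times above the highest adult one, and the spread within either stage was small beside the gap. The difference was -3.06 (SE 0.08, 95% interval -3.23 to -2.89, limma adjusted p = 9.07e-13), and 1.02% of all genes tested had a lower one.

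Sox5, an HMG-box factor that sets when the successive types of corticofugal neuron are made, came next. Its levels were 43.5, 42.7 and 40.2 CPM in the adult samples and 226, 226, 198 and 229.6 CPM in the E17 samples. The adult mean was 42.2 ± 1.77 CPM and the E17 mean 219.9 ± 14.6 CPM, with every adult sample far below every E17 sample. This corresponded to a difference of -2.27 (SE 0.08, limma adjusted p = 8.81e-12). In the GENCODE M21 annotation, 1330 bases of Sox5 exons overlap the antisense gene Sox5os1, which is no row of the gene table, and it is not known whether reads of the opposite strands were counted apart.

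Fezf2, the zinc finger factor that selects the subcerebral fate in layer 5, was at 24.4, 26.0 and 22.7 CPM in adult cortex, against 82.2, 83.5, 79.8 and 74.8 CPM at E17. Bcl11b, a zinc finger factor that directs the outgrowth of corticospinal axons, was at 135, 126 and 114 CPM in adult cortex, against 404, 366, 323 and 342 CPM at E17. Tbr1, the T-box factor of layer 6 and subplate neurons, was at 109, 88.5 and 95.01 CPM in adult cortex, against 276, 249.5, 248 and 292 CPM at E17. All 3 were lower in each adult sample than in the lowest E17 sample, by differences of a similar size: -1.60 for Fezf2 (SE 0.08, limma adjusted p = 6.35e-10), -1.43 for Bcl11b (SE 0.09, limma adjusted p = 4.65e-09) and -1.36 for Tbr1 (SE 0.09, limma adjusted p = 5.50e-09).

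Of the forkhead factors Foxp1 and Foxp2, which can form dimers with each other, Foxp2 was called lower and Foxp1 was not called. Foxp2, a factor of layer 6 neurons, was at 24.9, 26.2 and 24.6 CPM in adult samples, against 53.3, 51.1, 39.8 and 57.2 CPM in E17 samples. The groups were apart, although the lowest E17 sample, replicate 3, lay well below the other 3, and the difference was -0.88 (SE 0.11, limma adjusted p = 5.92e-06). Foxp1, found in layers 3 to 5, was at 122, 104 and 119 CPM in adult samples, against 155, 122, 127 and 133 CPM in E17 samples. Its adult and E17 samples overlapped, and the difference of -0.14 (95% interval -0.34 to 0.06, limma adjusted p = 0.198) was not called. It was -0.07 without E17 replicate 1 (limma adjusted p = 0.523) or without adult replicate 2 (limma adjusted p = 0.532), and -0.32 (limma adjusted p = 0.00722) when samples were centred on their medians, a scaling that moves the difference of every gene by -0.18. M21 also lists Gm20696 and Gm49348 on the same strand as Foxp1, sharing 300 and 135 bases of exon with it, and neither is in the gene table.

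Zfpm2, a cofactor of GATA factors also known as Fog2 and used in layer 6 corticothalamic neurons, was the factor with the fewest reads. It was at 17.8, 14.1 and 14.1 CPM in adult samples, against 29.9, 33.0, 22.2 and 32.9 CPM in E17 samples. The highest adult sample stayed below the lowest E17 sample, again replicate 3, and the difference was -0.82 (SE 0.13, limma adjusted p = 7.84e-05).

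Nr4a2, an orphan nuclear receptor also known as Nurr1 that marks subplate neurons, varied most among the E17 samples relative to its mean. It was at 41.7, 47.9 and 33.3 CPM in adult samples, against 56.2, 38.9, 58.9 and 59.2 CPM in E17 samples. E17 replicate 2 lay inside the adult range while the other 3 E17 samples lay above it, and the difference of -0.28 (95% interval -0.60 to 0.03, limma adjusted p = 0.103) was not called. The value and the call turned on single samples: without adult replicate 3 the difference was -0.14 (limma adjusted p = 0.423), without adult replicate 2 it was -0.41 (limma adjusted p = 0.0314) and without E17 replicate 2 it was -0.42 (limma adjusted p = 0.00893). With samples centred on their medians it was -0.47 (limma adjusted p = 0.0103).

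Etv1, an ETS factor of layer 5 projection neurons, went the other way. Its levels were 71.6, 54.5 and 50.01 CPM in adult samples and 30.2, 29.5, 28.1 and 37.7 CPM in E17 samples. The lowest adult sample was above the highest E17 sample, and the difference was 0.96 (SE 0.12, 95% interval 0.70 to 1.23, limma adjusted p = 8.21e-06).

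**Figure D2:**
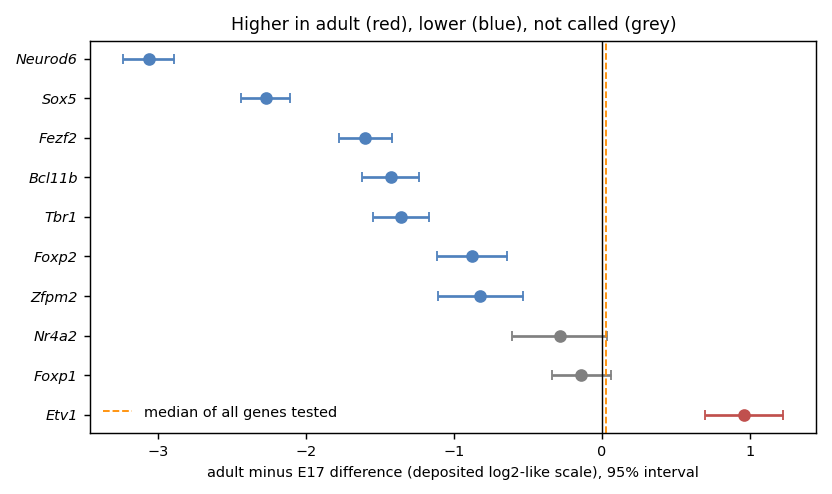
Adult minus E17 difference of each factor on the deposited log2-like scale (horizontal axis, dots with 95% intervals), with the median of all genes tested as a dashed line at 0.03. Intervals of Neurod6 to Zfpm2 lie below 0, those of Nr4a2 and Foxp1 span it and that of Etv1 lies above it.

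The sequence around the annotated starts is shown for Neurod6 and Etv1, the factor that fell the most and the factor that rose. The sequences are RefSeq promoters of the GRCm38.p6 build, 250 bases before to 50 bases after a start, 5′ to 3′ on the gene's strand. Capitals mark matches, on either strand, to the T-box half-site TCACAC, the NeuroD-type E-box CAGATG, the SOX core AACAAT and the TATA box TATAAA.
Neurod6, chr6:55681214-55681513, minus strand: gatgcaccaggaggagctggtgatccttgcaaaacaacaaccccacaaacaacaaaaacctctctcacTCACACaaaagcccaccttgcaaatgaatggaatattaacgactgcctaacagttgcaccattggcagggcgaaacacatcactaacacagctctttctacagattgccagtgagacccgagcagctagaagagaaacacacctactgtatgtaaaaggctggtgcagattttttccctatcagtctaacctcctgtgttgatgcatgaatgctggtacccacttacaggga
Etv1, downstream start, chr12:38783461-38783760, plus strand: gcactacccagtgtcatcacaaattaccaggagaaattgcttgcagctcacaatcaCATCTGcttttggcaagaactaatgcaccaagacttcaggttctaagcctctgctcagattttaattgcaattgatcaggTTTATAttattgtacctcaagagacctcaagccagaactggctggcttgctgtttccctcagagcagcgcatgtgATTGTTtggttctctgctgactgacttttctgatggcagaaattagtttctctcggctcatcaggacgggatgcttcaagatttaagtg
Etv1, upstream start, chr12:38779832-38780131, plus strand: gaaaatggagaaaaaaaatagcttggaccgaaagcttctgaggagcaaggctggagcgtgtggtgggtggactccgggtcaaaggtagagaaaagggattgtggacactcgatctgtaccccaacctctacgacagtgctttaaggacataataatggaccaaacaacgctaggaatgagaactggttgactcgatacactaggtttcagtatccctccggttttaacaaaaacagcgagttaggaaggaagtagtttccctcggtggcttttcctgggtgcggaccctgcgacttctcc
The Neurod6 window held 1 T-box half-site, a motif present in 14.5% of all 32851 promoters of the table. The downstream Etv1 window held 1 NeuroD-type E-box (17.2% of all promoters), 1 SOX core (10.7%) and 1 match to TATAAA (13.6%). These matches all lie on the strand opposite the gene's, and a match was counted wherever it lay in the window. The upstream window held no match to these 4 motifs. The table gave 11 promoters for 8 factors, and none for Foxp2 or Zfpm2. Over those 11, the T-box half-site was found in 3, the SOX core in 4, the NeuroD-type E-box in 1 and the string TATAAA in 3. The forkhead core TGTTTAC, the NR4A monomer site AAAGGTCA and the ETS core CCGGAAGT, also searched on both strands, were found in none. These 3 occur in 3.65%, 1.51% and 3.89% of all promoters, so 11 promoters are too few for their absence to be read. The motifs are shared by many promoters and are given as a description of the sequence.

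Together the 10 factors made up 649.9, 584 and 562 CPM in the adult samples, against 1800.2, 1668, 1636 and 1738 CPM in the E17 samples. The make-up of these reads also differed. Neurod6 took 9.06 ± 0.31% of the factors' reads in adult samples and 28.5 ± 1.86% in E17 samples (SD, n = 3 and n = 4), and Sox5 took 7.06 ± 0.32% in adult and 12.9 ± 0.66% in E17 samples. Foxp1 took 19.2 ± 1.74% in adult and 7.84 ± 0.56% in E17 samples. Etv1 took 9.75 ± 1.11% in adult and 1.83 ± 0.23% in E17 samples. Bcl11b took about the same part at both stages, 20.9 ± 0.64% in adult and 20.9 ± 1.44% in E17 samples, and Tbr1 nearly so, 16.3 ± 0.98% in adult and 15.6 ± 0.84% in E17 samples. These are shares of reads and are not corrected for gene length.

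**Figure D3:**
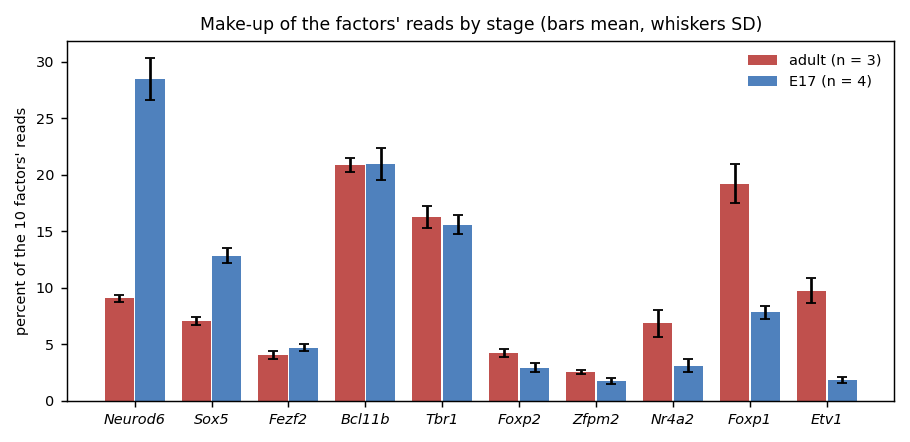
Share of the 10 factors' summed reads taken by each factor, in percent (vertical axis), as means with SD for 3 adult (red, left) and 4 E17 samples (blue, right). Neurod6 and Sox5 take a larger share at E17, Foxp1, Nr4a2 and Etv1 a larger share in adult cortex, and Bcl11b and Tbr1 about the same share at both stages.

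Per kilobase of merged M21 exons (RPKM, a level that allows genes to be compared), the adult order was led by Neurod6 at 25.3 ± 2.57, followed by Tbr1 at 17.8 ± 1.94, Bcl11b at 15.4 ± 1.31, Nr4a2 at 10.1 ± 1.80, Foxp1 at 8.35 ± 0.70, Fezf2 at 8.00 ± 0.54, Etv1 at 4.41 ± 0.85, Sox5 at 2.93 ± 0.12, Zfpm2 at 1.60 ± 0.22 and Foxp2 at 1.54 ± 0.05 RPKM. Among neighbours in that order, sample ranges overlapped between Tbr1 and Bcl11b, between Nr4a2, Foxp1 and Fezf2 in turn, and between Zfpm2 and Foxp2. At E17 the order was Neurod6 at 226 ± 8.33, Tbr1 at 48.6 ± 3.89, Bcl11b at 44.2 ± 4.28, Fezf2 at 26.3 ± 1.26, Sox5 at 15.3 ± 1.02, Nr4a2 at 13.1 ± 2.38, Foxp1 at 9.77 ± 1.07, Zfpm2 at 3.09 ± 0.53, Foxp2 at 3.08 ± 0.46 and Etv1 at 2.36 ± 0.32 RPKM. Neurod6, Tbr1 and Bcl11b led at both stages, Sox5 was the eighth in adult cortex and the fifth at E17, and Etv1 was the seventh in adult cortex and the last at E17. At E17 ranges overlapped between Tbr1 and Bcl11b, between Sox5, Nr4a2 and Foxp1 in turn, and between Zfpm2, Foxp2 and Etv1 in turn. The places depend on the length used. Per kilobase of the longest transcript, Foxp1 stood at 16.0 ± 1.34 RPKM in adult cortex, above Bcl11b at 15.4 ± 1.31 RPKM, with overlapping ranges. Adult ranges of Neurod6 (25.3 ± 2.57 RPKM) and Tbr1 (24.5 ± 2.67 RPKM) also overlapped by that length. Foxp2 then stood above Zfpm2 with ranges apart, at 3.73 and 2.64 RPKM in adult cortex and 7.44 and 5.10 RPKM at E17. So did Foxp1 above Nr4a2 at E17, at 18.7 and 14.9 RPKM.

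Differences between pairs of genes were taken within each sample, so that depth and scaling drop out, and compared between stages over the samples. With 3 adult and 4 E17 samples the smallest p an exact permutation test can give is 0.0571 (two-sided), so no pair could pass 0.05. The shifts of Etv1 minus Fezf2, Foxp1 minus Foxp2 and Fezf2 minus Sox5 each reached that smallest value (0.0714 after adjustment over the 5 pairs). The values are on the deposited scale with SD. They are not corrected for gene length, so the shift is read and not the order of the genes. Etv1 minus Fezf2, both factors of layer 5, was 1.23 ± 0.26 in adult and -1.33 ± 0.24 in E17 samples, a shift of 2.56. Foxp1 minus Foxp2 was 2.15 ± 0.17 in adult and 1.41 ± 0.22 in E17 samples, a shift of 0.74. Fezf2 minus Sox5 was -0.77 ± 0.06 in adult and -1.45 ± 0.12 in E17 samples, a shift of 0.67. Bcl11b minus Tbr1 was 0.36 ± 0.13 in adult and 0.43 ± 0.16 in E17 samples, a shift of -0.07 with overlapping groups (exact permutation p = 0.514, adjusted p = 0.514).

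Paralogs of the factors gave 10 lower (beside 33.9% of all genes tested), 4 higher (beside 35.8%) and 2 not called of 16. Their median difference was -1.12. In the NeuroD family, Neurod2, a paralog found in the same excitatory neurons, was at 76.9 ± 6.95 CPM in adult and 447 ± 26.4 CPM in E17 cortex (difference -2.44, limma adjusted p = 9.50e-12), and Neurod1 and Neurod4 also fell. Bcl11a, the paralog of Bcl11b, was at 91.9 ± 5.51 CPM in adult and 385 ± 24.2 CPM in E17 cortex (difference -1.97, limma adjusted p = 3.19e-11). The SoxD genes split, with Sox6 at 25.5 ± 1.44 CPM in adult and 66.3 ± 8.37 CPM in E17 cortex, and Sox13 at 9.59 ± 1.15 CPM in adult and 6.86 ± 0.46 CPM in E17 cortex, both called. Foxp4 was at 45.7 ± 7.24 CPM in adult and 115 ± 8.42 CPM in E17 cortex (difference -1.24, limma adjusted p = 1.29e-07), so Foxp1 was the FOXP gene that was not called. Foxp3, at 1.12 ± 0.41 CPM in adult and 1.95 ± 0.49 CPM in E17 cortex, was called lower (limma adjusted p = 0.0370), and that call was lost without adult replicate 1 or 2, without E17 replicate 1, 2 or 3, without the filter on low values and with no variance trend (limma adjusted p = 0.0530 to 0.179).

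Eomes, the T-box gene of intermediate progenitors, had 21 to 22 reads in the adult samples and 1592 to 2252 reads in the E17 samples (difference -5.90, limma adjusted p = 6.67e-14). Fezf1 had 0 to 14 reads in the adult samples and 60 to 143 reads in the E17 samples. Zfpm1, the paralog of Zfpm2, moved opposite to it, at 34.4 ± 2.01 CPM in adult and 6.20 ± 0.21 CPM in E17 cortex (difference 2.43, limma adjusted p = 3.44e-11). Etv5 rose as Etv1 did, at 113 ± 5.68 CPM in adult and 54.8 ± 2.64 CPM in E17 cortex (difference 1.12, limma adjusted p = 1.04e-08), while Etv4, at 8.63 ± 0.51 CPM in adult and 7.94 ± 0.96 CPM in E17 cortex, was not called (limma adjusted p = 0.153). Tbx21 was near the floor of the data, at 0.17 ± 0.15 CPM in adult and 0.21 ± 0.08 CPM in E17 cortex.

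**Figure D4:**
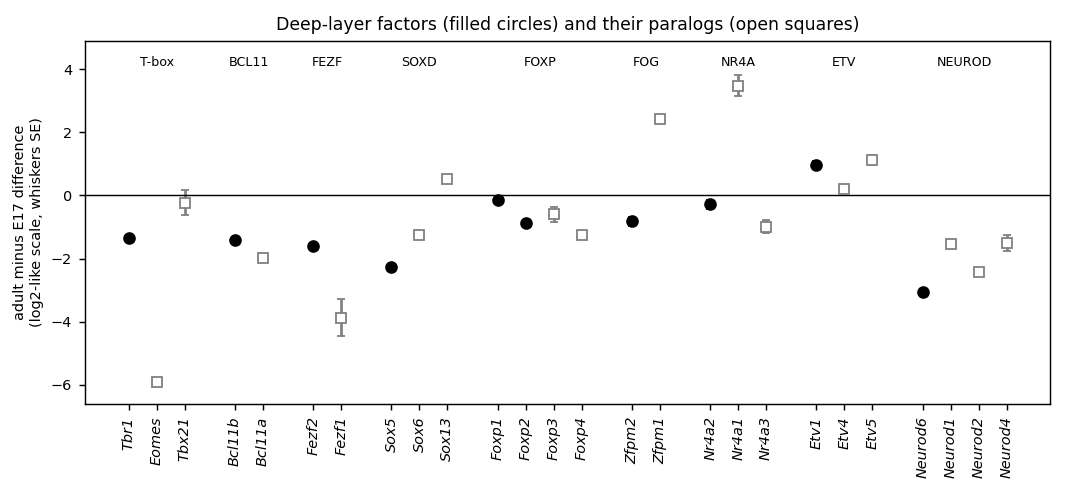
Adult minus E17 difference on the deposited log2-like scale (vertical axis, whiskers SE) for the 10 factors (filled circles) and their 16 paralogs (open squares), grouped by family. T-box, BCL11, FEZF, FOXP and NEUROD genes lie below 0, and the SOXD, FOG, NR4A and ETV families hold members above 0.

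The NR4A genes are nuclear receptors that neuronal activity can induce, and their 3 members differed. Nr4a1 was at 50.7, 154 and 37.6 CPM in adult samples, against 5.04, 5.98, 6.12 and 5.82 CPM in E17 samples (difference 3.47, limma adjusted p = 4.01e-07). Nr4a3 was at 28.2, 55.8 and 23.8 CPM in adult samples, against 80.0, 60.6, 65.5 and 81.7 CPM in E17 samples (difference -0.99, limma adjusted p = 0.00108). All 3 NR4A genes were highest, among adult samples, in replicate 2. A list of 13 activity-regulated genes includes Nr4a1 and Nr4a3. In it 9 were called higher (beside 35.8% of all genes tested), 1 lower (beside 33.9%) and 3 not called. For the 11 others of that list the same sample was the highest adult one in 11 of 11 cases, with a summed level of 457, 1249.8 and 318 CPM in adult replicates 1, 2 and 3 and 60.3 to 72.5 CPM in the E17 samples. Arc, a synaptic immediate-early gene, was at 219.8 ± 196 CPM in adult and 2.49 ± 0.45 CPM in E17 cortex. Without adult replicate 2, Nr4a1 still differed by 2.86 (limma adjusted p = 5.36e-10). The part of the activity-regulated genes in the level of Nr4a2 was not tested.

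**Figure D5:**
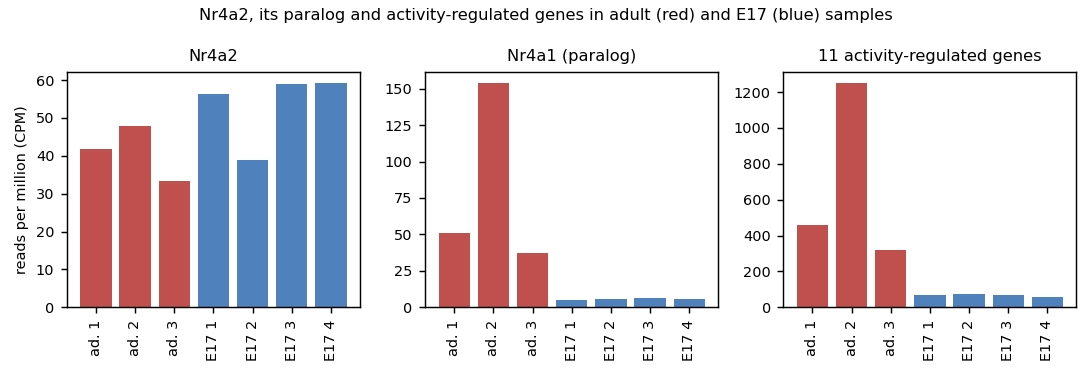
Level in CPM (vertical axes from 0) of Nr4a2, of its paralog Nr4a1 and of the sum of 11 activity-regulated genes outside the NR4A family in each adult (red, left) and E17 sample (blue, right). Adult replicate 2 is the highest adult sample in each panel, while in the Nr4a2 panel 3 of the 4 E17 samples stand above it.

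Other tissues that use the factors were followed through their markers. Beside the counts given here, 35.8% of all genes tested were called higher and 33.9% lower. Of 12 markers of striatal neurons, which express Bcl11b, Foxp1 and Foxp2, 11 were higher and Isl1 was lower in adult cortex, with a summed level of 1197 to 1408 CPM in adult and 264 to 310.4 CPM in E17 samples. Penk, an opioid precursor of striatal neurons that cortical cells also make, was at 251 ± 11.7 CPM in adult and 7.59 ± 1.20 CPM in E17 cortex. Thalamic markers, which bear on Foxp2, were higher in 6 of 8 cases and not called in the other two, with a sum of 272 to 429.9 CPM in adult and 86.0 to 149 CPM in E17 samples. Markers of the claustrum, which bear on Nr4a2, were lower in 3 of 4 cases, with a sum of 98.0 to 119 CPM in adult and 227 to 241 CPM in E17 samples, and the fifth on the list, Smim32, is no row of the table. Midbrain dopamine neuron markers, which also bear on Nr4a2, were higher in 4 of 4 tested cases, Th, Slc6a3, Lmx1b and En1, with a sum of 10.5, 13.6 and 2.86 CPM in adult replicates 1, 2 and 3 and 0.52 to 0.76 CPM in E17 samples. The order of the adult samples was that of Nr4a2, at 41.7, 47.9 and 33.3 CPM. It was not particular to these markers. Claustrum markers (105, 119 and 98.0 CPM) and oligodendrocyte lineage markers (4443, 6152 and 3402 CPM) had it too. So did progenitor markers (118, 136 and 96.9 CPM) and microglia markers (233, 249 and 232 CPM). Markers of striatum, thalamus, interneurons, projection neurons, endothelium and mural cells, and meninges and fibroblasts did not. Foxa2 and Pitx3, also on the midbrain list, were not tested, with no reads of Foxa2 in any sample and at most 2 of Pitx3. The part of these tissues in the levels of Bcl11b, Foxp1, Foxp2 and Nr4a2 was not tested.

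Of 25 partners and regulators of the factors, 22 were lower in adult cortex (beside 33.9% of all genes tested), 1 was higher (beside 35.8%) and 2 were not called. Their median difference was -1.38. Sox11 and Sox4, SoxC factors of young neurons that act on Fezf2, had the largest falls. Sox11 was at 7.79 ± 1.72 CPM in adult and 379 ± 82.3 CPM in E17 cortex (difference -5.38, limma adjusted p = 3.44e-12), and Sox4 at 15.9 ± 4.84 CPM in adult and 463 ± 77.1 CPM in E17 cortex (difference -4.74, limma adjusted p = 1.78e-11). The gene that rose was Rxra, a retinoid receptor that pairs with Nr4a2, at 40.1 ± 1.26 CPM in adult and 18.2 ± 2.36 CPM in E17 cortex (difference 1.20, limma adjusted p = 1.38e-07).

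Genes that mark deep-layer and subplate neurons, in contrast, were more often higher than lower in adult cortex. Of 23 tested, 15 were higher (beside 35.8% of all genes tested), 7 were lower (beside 33.9%) and 1 was not called. Their median difference was 0.74, and Tcerg1l had too few reads to be tested. Summed levels overlapped between the stages, at 952 to 1064 CPM in adult and 811 to 955 CPM in E17 samples. Cplx3, a complexin of subplate neurons, was at 22.4 ± 1.95 CPM in adult and 0.18 ± 0.06 CPM in E17 cortex, where it had 2 to 5 reads a sample (difference 5.76, limma adjusted p = 1.14e-11), and the secreted Wnt agonist Rspo1 was at 6.19 ± 0.82 CPM in adult and 0.37 ± 0.13 CPM in E17 cortex (difference 3.36, limma adjusted p = 4.27e-09). Ntsr1, a neurotensin receptor of layer 6 corticothalamic neurons, was at 9.73 ± 2.09 CPM in adult and 49.6 ± 4.04 CPM in E17 cortex (difference -2.20, limma adjusted p = 1.63e-09), and Rprm, a p53-responsive gene, was at 54.6 ± 7.58 CPM in adult and 147 ± 12.7 CPM in E17 cortex (difference -1.33, limma adjusted p = 3.55e-08). The list of factors and this list of markers thus had median differences of opposite sign, and that contrast between the lists was not tested.

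Of 10 genes reported as targets of Tbr1 or Foxp2, 5 were higher (beside 35.8% of all genes tested), 3 lower (beside 33.9%) and 2 not called. For a list this short, these counts lie near the shares of all genes. Reln, the secreted guide of migrating neurons, was at 103 ± 10.2 CPM in adult and 368 ± 48.5 CPM in E17 cortex (difference -1.74, limma adjusted p = 2.54e-09), and Auts2, whose gene Tbr1 binds, at 108 ± 10.9 CPM in adult and 353 ± 26.1 CPM in E17 cortex (difference -1.61, limma adjusted p = 1.03e-09). Ntng1, a membrane protein of axons, was at 34.2 ± 9.81 CPM in adult and 7.28 ± 0.72 CPM in E17 cortex (difference 2.17, limma adjusted p = 3.58e-08), and Srpx2, a reported target of Foxp2, had 20 to 37 reads in adult and 0 to 1 reads in E17 samples. Among the 5 called higher was Mef2c, with overlapping groups (limma adjusted p = 0.0494). With samples centred on their medians, 3 of the 10 were called higher. The count was 4 with quantile normalization, voom, no variance trend, no filter on low values or a filter on mean reads. It was also 4 without E17 replicate 1, 2 or 3 and without adult replicate 1 or 3.

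Of 12 upper-layer factors 8 were lower (beside 33.9% of all genes tested), 3 higher (beside 35.8%) and 1 not called. Their median difference was -0.89. Among the 10 factors followed here, which are not all specific to deep layers, 7 were lower and 1 higher. The POU factor Pou3f2 was at 14.2 ± 2.87 CPM in adult and 89.5 ± 11.8 CPM in E17 cortex (difference -2.51, limma adjusted p = 6.76e-10). Lmo4 was at 149.7 ± 1.28 CPM in adult and 123 ± 15.8 CPM in E17 cortex (difference 0.37, limma adjusted p = 0.00277), and Rorb, a nuclear receptor of layer 4, at 55.5 ± 7.69 CPM in adult and 48.1 ± 4.75 CPM in E17 cortex (difference 0.28, limma adjusted p = 0.0254). The third gene called higher, Mef2c, named after its values were seen, was at 484 ± 44.5 CPM in adult and 435 ± 64.5 CPM in E17 cortex, with overlapping groups (difference 0.25, limma adjusted p = 0.0494). The count of 3 called higher was 0 with samples centred on their medians (limma adjusted p = 0.0848 for Lmo4, 0.405 for Rorb and 0.596 for Mef2c). It was 1, Lmo4, with quantile normalization, with no variance trend, without E17 replicate 2 and without adult replicate 1, where the limma adjusted p of Rorb was 0.0502, 0.0783, 0.0853 and 0.146. Mef2c also lost its call without the filter on low values, with voom, and without E17 replicate 1 or 3 or adult replicate 3 (limma adjusted p = 0.0685 to 0.0909).

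For each factor the genes with the most similar values were sought among 12462 tested genes with a mean of at least 50 reads, as the smallest Euclidean distance over the 7 samples after centring each gene. Ccdc50 and Zfp354c came nearest to Tbr1, Zfp362 and the pseudogene Hmgb1-ps1 to Bcl11b, Gpsm1 and Tle3 to Fezf2, and Mllt3 and Tiam2 to Sox5. Odz3 and Mex3c were nearest to Foxp2, Ctdspl2 and Xrn1 to Zfpm2, Bzw2 and the SoxC gene Sox12 to Neurod6, and Tm9sf2 and the neuropeptide gene Adcyap1 to Etv1. Foxp1, with Clvs1 and Pcdhb5, and Nr4a2, with Pcdhb22 and Mrgpre, had their neighbours among genes whose difference was also small. Distances ran from 0.08 (Ccdc50 to Tbr1) to 0.33 (Mrgpre to Nr4a2) on the deposited scale. With 2 stages and 7 samples such neighbours share mainly the size of the difference between the stages.

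Exon usage was read as the share of a gene's reads that fell in an exon, rebuilt from the deposited exon values, and diffSplice in limma compared every exon with the rest of its gene's exons. Of 74 exons of 8 factors, 2 were called at an adjusted p under 0.05 over 86181 exons, where 4.86% of all exons were called, and 10 had an unadjusted p under 0.05. Both called exons belong to Sox5, on chromosome 6 of the mm9 build, and both carried few reads in adult samples and overlapped between the stages, so they were singled out after their values were seen. The exon that starts at 144730334, the first listed one at the 5′ end, took 0.80, 0.79 and 0.33% of the gene's reads in adult samples, against 0.17, 0.33, 0.19 and 0.06% in E17 samples, from 3 to 17 reads a sample (adjusted p = 0.0255). The exon that starts at 143855092 took 0.40, 1.39 and 0.33% in adult samples, against 1.18, 1.18, 1.27 and 1.52% in E17 samples (adjusted p = 0.0355). With a variance of its own for each exon the adjusted p was 0.145 for the first and 0.274 for the second. Only Sox5 passed the Simes test per gene (adjusted p = 0.0480, where 28.8% of all genes were called), and that call was absent without E17 replicate 2, 3 or 4.

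Groups did not overlap for 5 of the 74 exons, and for 12.2% of all exons. Among these was an Nr4a2 exon, at 56963048 on mm9 chromosome 2, with 5.88, 6.25 and 5.88% in adult samples and 5.26, 4.76, 4.55 and 4.76% in E17 samples (adjusted p = 0.676). A Foxp1 exon at 98902195 on chromosome 6 had 3.57, 4.17 and 3.57% in adult samples and 3.13, 3.23, 2.94 and 3.23% in E17 samples (adjusted p = 0.594). The shares of these exons thus moved by about 1 percentage point at most. For the 4 exons each of Fezf2 and Bcl11b, the 9 of Etv1 and the 2 of Neurod6, no exon was called and no groups were apart. This measure says little about their main exons, because the shares are rounded: the exon with most reads stood at 100% in all 7 samples for Neurod6 and Bcl11b and at 50% in all 7 for Etv1 and Fezf2, so a change there could not have been seen.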

How the data were processed

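For genes, the authors deposited variance-stabilized log2-like values made from reads per gene. For exons, they deposited a variance-stabilized score, called 1 over a ratio per the file headers, so a higher score means a smaller part of the gene. The mm9 build, HTSeq 0.5.3p3, SAMtools 0.1.7a, Bowtie 0.12.7.0, TopHat 1.0.13 and CASAVA 1.7.1 are named in the submitters' processing notes. The sources used here do not give the tool that stabilized the variance, or say whether strand was used.

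Each column steps through whole numbers. Gene reads were recovered within 0.1 of a whole number for over 99.99% of values, and levels (CPM, RPKM, shares) come from them, while tests used the deposited values. Exon numbers were read as gene reads over exon reads, rounded: 99.9% of 91286 exon values were reached in this way, against 20.7% after gene reads were shifted by up to 200. Exon shares are 100 divided by that number. Replicates of a stage differed by more than counting alone (chi-square per degree of freedom 4.83 to 17.7).

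A gene was left out if over 3 of its 7 values were the lowest of their columns. Adult was compared with E17 in limma 3.58.1 (R 4.3.3; lmFit, eBayes with trend, no covariate), two-sided, with Benjamini-Hochberg adjustment over all genes tested and a threshold of 0.05. Exons were tested with diffSplice. Alternatives used voom in limma with TMM factors computed by their published formula, other scalings and filters, and each sample left out. The procedures were also run on simulated data, in which far fewer genes changed than were called here and exons of similar level had a common spread. That run is therefore no check of the calls reported. Lengths come from GENCODE M21 and promoters from RefSeq, both GRCm38, and no coordinates were converted. The factors and gene lists were chosen with earlier results of these data known. Besides the 10 factors, the rule names from each list the 2 called genes with the largest difference in each direction whose groups do not overlap. The other paralogs, the pairs and the activity-regulated sample values were named because they belong to the factors' families or bear on Nr4a2. No p was adjusted over a list alone. A gene of the lists and its pair with a factor are not reported here; counts and adjustments include them.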

Additional observations from a re-analysis of the deposited data

Results flagged for a closer look

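In groups of 4 samples, a sample far from the other 3 was sought by Dixon's ratio of its gap to the whole range above its 95% critical value, in 58 sets of E17 values. Chance gives such a flag in about 1 of 20 groups, and 4 were found. Groups of 3 adult samples were not tested. For single genes the ratio was taken on the deposited values, so the CPM printed below do not give the same ratio. Flags were not sought on the CPM of single genes. Sox5 in E17 replicate 3 was at 198 CPM, against 226 to 229.6 CPM in the other 3 (ratio 0.972), and all 4 lay far above the adult samples. Nr4a2 in E17 replicate 2 was at 38.9 CPM, against 56.2 to 59.2 CPM in the other 3 (ratio 0.880). Rorb was also low in E17 replicate 2, at 41.1 CPM, against 49.3 to 51.7 CPM (ratio 0.843). Ntng1 in E17 replicate 4 was at 8.36 CPM, against 6.869 to 6.999 CPM (ratio 0.913). No cause of these values was tested.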

How the results depend on the processing

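The 8 called factors kept their call and direction under 14 alternatives each: other filters on low values, centring on medians, quantile normalization, voom on recovered counts, no variance trend, the replicate block and each sample left out. Foxp1 and Nr4a2 kept a negative sign throughout and were called lower under the settings named in the report. The count of factors lower in adult was 7 to 8 with a sample left out, where 7339 to 7559 of all genes were called lower. It was 9 with centring on medians, where 9047 of all 22828 genes tested were called lower, against 7736 in the test reported. That centring moves all differences by -0.18 and the share of calls that are higher to 43.6%, against 51.4%. Of 419 values of 30 other named genes, 396 kept direction and call, 23 lost the call (Foxp3, Lmo4, Rorb and Mef2c) and none changed sign. Pair shifts moved little with log2 of CPM plus 1.

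Exon results did not hold. Exons of the factors called numbered 2 in the test reported, 0 with a variance of its own per exon (an alternative chosen after seeing the data; 1806 of all exons, against 4185), 0 with the replicate block and 0 to 5 with a sample left out (2757 to 6799 of all exons), of which 5 without adult replicate 3. Genes passing the Simes test numbered 1, then 2 with log2 shares of rebuilt reads, 0 with the replicate block and 0 to 4 with a sample left out. The cause was not tested. The exon test without a variance trend was not run, since diffSplice has no such setting.

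Replicate numbers 1 to 3 recur in both stages. Deviations of same-numbered samples correlated at 0.0088, 0.0567 and 0.0405, so the numbers are not taken as pairs; with the replicate block, which leaves out E17 replicate 4, 7 factors were lower and 1 higher, as without it. Levels per kilobase with the longest transcript, also chosen after seeing the data, change part of the order. Depth limits the exons with few reads.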
